A study of Arabidopsis thaliana with 30 samples.

Results

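The messenger RNA levels of 37 splicing factor genes were followed in sorted root cells of Arabidopsis thaliana. The members are a list of locus identifiers, looked up in a gene table of 32833 genes, and 37 of 37 passed the filter on low counts together with 24866 genes in all. They comprised the 18 SR protein genes and 19 other members, namely the SR-like genes SR45 and SR45A, 4 U2AF subunits, U1-70K, U1A and PRP39A of the U1 particle, PTB1 to PTB3, GRP7, GRP8, SKIP, PRP8, STA1, LSM8 and PRMT5. Seedlings were labelled wild type and carried a fluorescent reporter. They were raised for 6 days at 22 °C on diluted MS medium under long days, with shaded roots, at low phosphate (LPi) or high phosphate (HPi). Cells were then collected by FACS, with 1 reporter line per cell type. The epidermis was taken from WER::GFP, the cortex from J0571, the pericycle from J0661, the stele from SHR::GFP and the lateral root cap from J3411. These 5 sorts had 3 LPi and 3 HPi libraries each, which gave 30 libraries in 10 groups. The protocol gives LPi as 5 µM phosphate, whereas the sample labels describe a medium lacking it. Since 1 line served each sort, the cell type and the line cannot be told apart. Nothing in the labels ties replicates to separate cultures, so the p-values cover no more than the spread of these libraries, which may be technical.

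Introns are removed by the spliceosome, which is built anew on each intron from small nuclear RNA and protein particles (snRNPs). The U1 particle binds the upstream end of the intron, U2AF binds the pyrimidine-rich tract and the downstream end, and the tri-snRNP that holds PRP8 then forms the catalytic core. SR proteins carry RNA recognition motifs and a tail rich in serine and arginine; they bind exons and recruit U1 and U2AF, and so take part in the choice between alternative splice sites. Many plant SR genes produce alternatively spliced transcripts of their own. The counts here give the total reads of each gene and allow no test of which isoforms were made. Of the 37 members, 12 overlap another annotated gene (SC35, RS31A, RS40, RS41, RS2Z32, RS2Z33, U2AF35A, U2AF35B, U1A, PTB1, SKIP and PRMT5), and the strand setting of the counting is not given in the sources used here, so reads of the partner cannot be told apart from theirs.

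Depth and purity differed between libraries. The median library held 16836088.5 gene reads. The deepest was pericycle HPi replicate 2, with 122076663 reads, and the shallowest stele LPi replicate 1, with 427064 reads, followed by stele HPi replicate 1 and pericycle LPi replicate 3. Levels are given as CPM, the reads of a gene scaled to a fixed total of gene reads per library, after TMM scaling. Pericycle LPi replicate 3 stood apart, with a TMM factor of 0.495 against 0.769 to 1.41 in the other 29 libraries, and results that rest on it are given with and without it. Epidermis LPi replicate 3 and epidermis HPi replicate 3 were nearly identical: their biological coefficient of variation was 0.0441, and that of any other pair within a sort was 0.225 or more. In the sort labelled cortex, the 5 endodermis markers summed to 3015 to 9399 CPM and the 3 cortex markers to 28.7 to 43.8 CPM, with CO2 at 0.5 CPM or less. The 4 epidermis markers summed to 60.9 to 85.7 CPM in the epidermis sort and to 23.1 to 68.4 CPM in the lateral root cap sort, so that these sorts overlapped. WER was highest in the epidermis sort, at 10.4 to 22.1 CPM against 3.89 CPM or less elsewhere, while CPC was at 14.6 to 23.5 CPM there and at 19.0 to 49.1 CPM in the cortex sort. The 5 lateral root cap markers summed to 779 to 1215 CPM in the epidermis sort and to 603 to 1780 CPM in the lateral root cap sort. Most of that sum was BFN1, which had a higher median in the lateral root cap sort. The other markers of this list, SMB, FEZ, BRN1 and BRN2, had higher medians in the epidermis sort. The 2 pericycle markers GATA23 and PHO1 summed to 15.4 to 99.8 CPM in the pericycle sort, and the 5 stele markers to 86.8 to 372 CPM there against 1249 to 4735 CPM in the stele sort. Most of the stele sum was XCP1 and XCP2, genes of xylem, whereas the phloem genes SUC2 and APL had higher medians in the pericycle sort. SHR, the remaining stele marker and the gene named in the stele line, had a higher CPM in every cortex library than in any stele library. SUC2, the sucrose transporter of companion cells, stood at 75.9 to 318 CPM in the pericycle sort, at 34.9 to 143 CPM in the stele sort and at 20.1 CPM or less elsewhere. APL, a regulator of phloem identity, stood at 2.17 to 10.9 CPM in the pericycle sort at 0.695 CPM or less in the stele sort and at up to 10.3 CPM in the lateral root cap sort. The part of phloem cells in the pericycle values below was not tested. Genes of dividing cells summed to 29.3 CPM or less in each of the 30 libraries.

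The members differed widely in abundance. Per kilobase of exon, the mean level over the 30 libraries was highest for SR45A, an SR-like protein induced by stress, at 224 CPM per kb, followed by SR30 at 127, GRP8 at 106 and SKIP at 86.7 CPM per kb. The lowest were SCL28 at 2.22 and U2AF35B at 1.26 CPM per kb. SCL28 had no read in 3 libraries, which allows up to 3 counts each. Together the 37 members took 0.179% to 0.482% of the gene reads of a library.

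**Figure D1:**
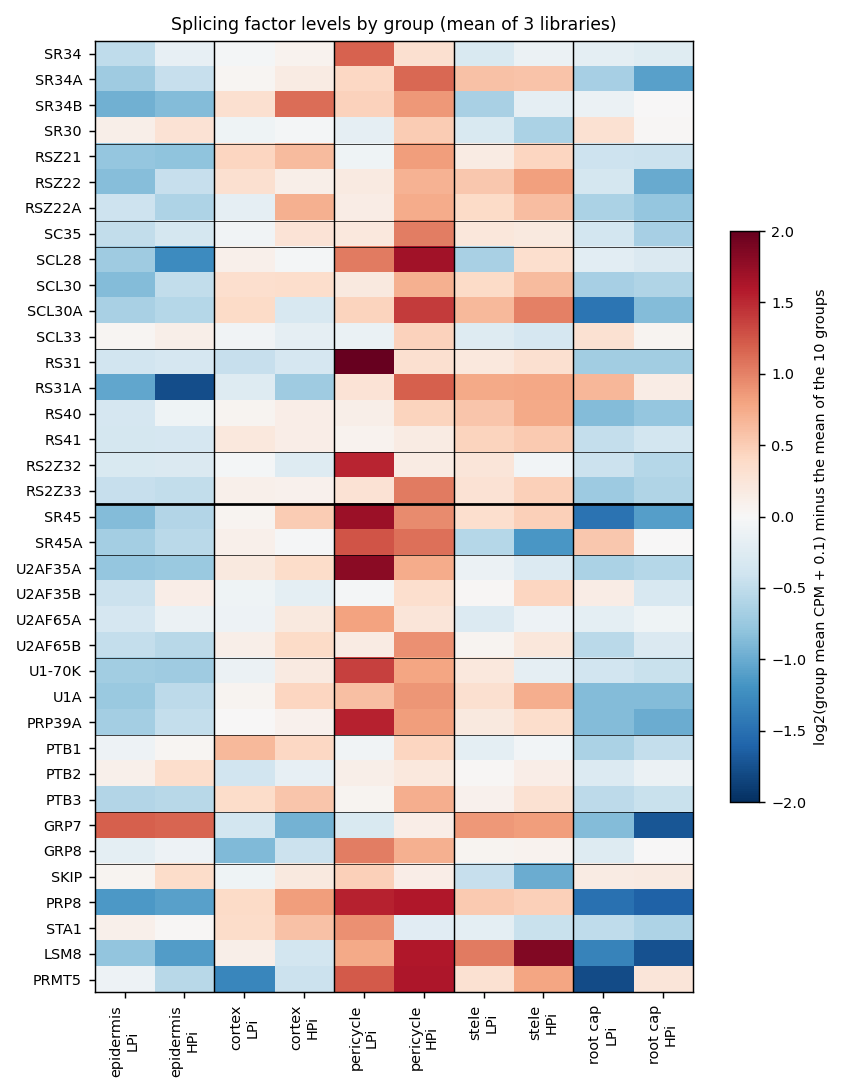
Colour plot of the 37 members (rows) in the 10 groups (columns, LPi left of HPi within each sort). Colour is the log2 of the mean CPM of 3 libraries, with 0.1 CPM added, minus the mean of that gene over the groups, and colours stop at 2 in either direction. The pericycle columns are the warmest for most rows, and the RS31 cell of pericycle LPi carries the 522 CPM of replicate 3.

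Across the 5 sorts the members were highest in the pericycle and lowest in the lateral root cap and the epidermis. By mean CPM over 6 libraries, the pericycle held the highest level of 23 members, the stele of 7, the cortex of 5 and the epidermis of 2. The lowest level lay in the lateral root cap for 18 members, in the epidermis for 11 and in the cortex and the stele for 4 each. The pericycle was never the lowest and the lateral root cap never the highest. Without pericycle LPi replicate 3 the highest level lay in the pericycle for 26 members, in the stele for 7 and in the cortex and the epidermis for 2 each. In a joint test of any difference between sorts (edgeR's quasi-likelihood F test, Benjamini-Hochberg adjusted over all genes), 33 of the 37 members passed at an adjusted p under 0.05, while 59.8% of all genes tested did. The exceptions were SCL28, SCL33, U2AF35B and PTB2. In these bulk libraries, fewer cells of a type and less RNA per cell cannot be told apart.

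The share of gene reads that went to the 37 members, which uses no scaling between libraries, was 0.392% to 0.482% in the pericycle libraries and 0.179% to 0.324% in the other 24 libraries. All 6 pericycle libraries lay above all others, pericycle LPi replicate 3 being the lowest of them. Summed over members, the level was 3179 to 7925 CPM in the pericycle, with a median of 3888 CPM, the 7925 CPM being LPi replicate 3 and the other 5 lying at 5019 CPM or less. It reached at most 3122 CPM in any library of another sort. Summed over the 18 SR genes alone, the sorts overlapped. The pericycle held 985 to 1830 CPM, while the stele reached 1165 CPM and the cortex 1023 CPM. The sum of the 19 other members was 2195 to 6095 CPM in the pericycle and at most 2121 CPM elsewhere. The CPM sums of the 37 and of the 19 stayed apart only with SR45A, which held 591 to 1548 CPM in the pericycle. Without it, pericycle LPi replicate 1 would lie below cortex HPi replicate 3 in both sums.

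Tested against the mean of the other 4 sorts, 26 members were higher in the pericycle and 0 were lower, at an adjusted p under 0.05. Of all genes tested, 22.1% were higher and 13.9% lower. At an unadjusted p under 0.05, 28 members passed, and DESeq2 and limma voom each called 25 higher and 0 lower. The median log2 difference was 0.84 over the members and 0.06 over all genes. Without pericycle LPi replicate 3, 24 were higher and 0 lower, 23 of them shared with the 26, and the median was 0.64 over the members and -0.11 over all genes. In the HPi libraries alone, which leave out that library, 18 were higher while 13.4% of all genes tested were. At the other settings of the tests between sorts, here and below, the shares of all genes are not given. Those counts of calls thus have no background beside them.

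The smallest p-values in the pericycle were those of PRP8, PRP39A and U1-70K, the first a core protein of the spliceosome and the others proteins of the U1 particle. PRP8 (AT1G80070), the U5 protein that cradles the catalytic centre, had 384, 433 and 570.6 CPM in the pericycle at LPi and 381, 565 and 502 CPM at HPi. In the other 24 libraries PRP8 ranged from 35.4 to 377 CPM with a median of 135 CPM. The pericycle values of PRP8 thus lay above all others, and its log2 difference was 1.96 (SE 0.19, adjusted p = 5.96e-09), or 1.81 without LPi replicate 3. U1-70K (AT3G50670), which contacts SR proteins at the upstream splice site, had 91.1, 87.7 and 316 CPM in the pericycle at LPi and 87.6, 137 and 106 CPM at HPi, against 32.5 to 81.5 CPM elsewhere. Its groups did not overlap either, and U1-70K was 1.35 higher on the log2 scale (SE 0.19, adjusted p = 1.84e-06), or 0.85 without LPi replicate 3. PRP8 and U1-70K were the 2 of 37 members, or 5.41%, whose 6 pericycle libraries lay above all 24 others, beside 0.635% of all genes tested. Without LPi replicate 3 the count was again 2, beside 1.45% of all genes. U1A (AT2G47580), which binds U1 RNA, was 0.94 higher (adjusted p = 0.0032). PRP39A (AT1G04080), a U1-associated factor, ranged from 157 to 656 CPM in the pericycle with a median of 189 CPM, and from 44.6 to 184 CPM with a median of 86.2 CPM elsewhere. The 656 CPM of PRP39A came from LPi replicate 3, and its log2 difference was 1.48 (SE 0.20, adjusted p = 1.22e-06), or 0.93 (adjusted p = 9.18e-06) without that library.

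**Figure D2:**
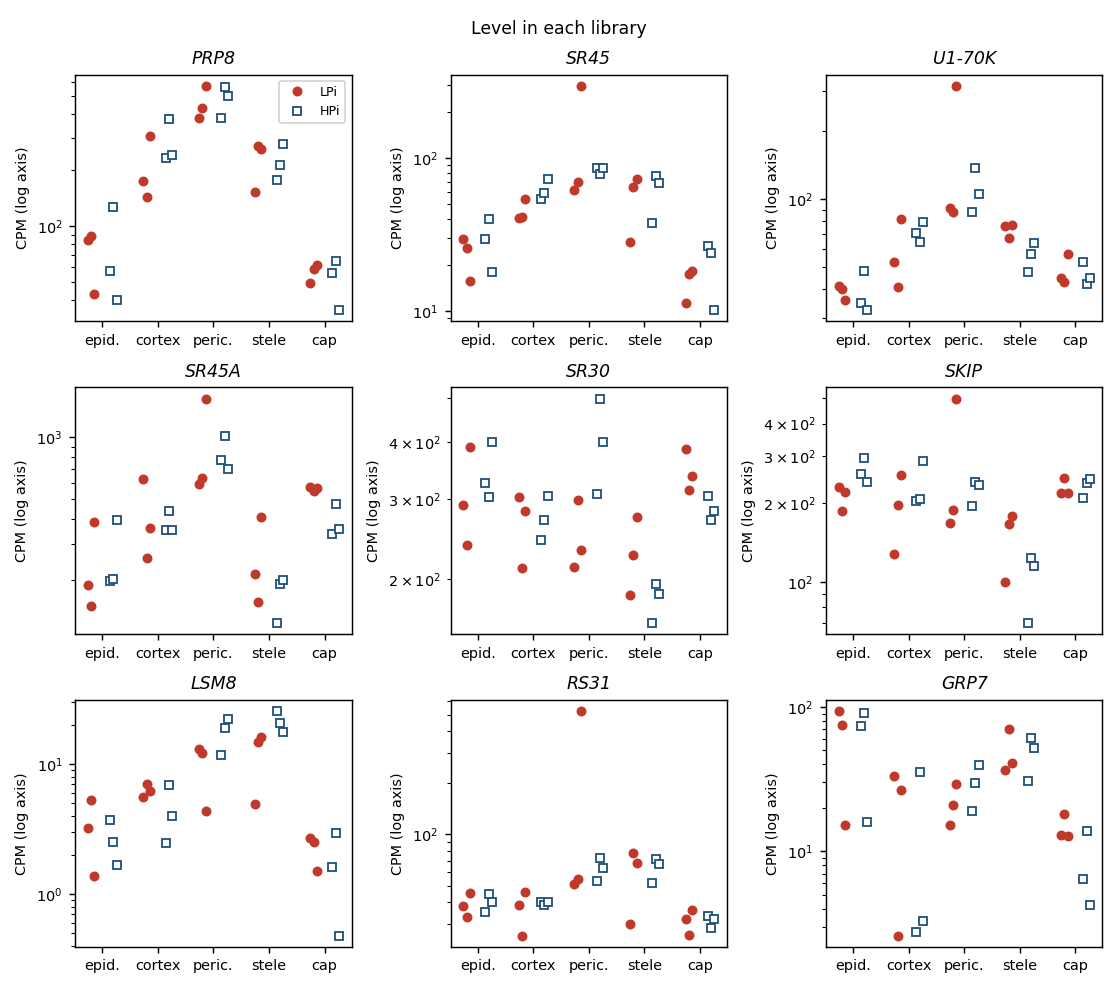
Level of 9 members in each of the 30 libraries, in CPM on a log axis, by sort and with LPi points left of HPi points. For PRP8 and U1-70K the 6 pericycle points lie above the 24 others, and the single high pericycle LPi point of RS31 is replicate 3.

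Other members of the core did not share one pattern. LSM8 (AT1G65700), which belongs to the ring that holds U6 RNA in the nucleus, was higher in the stele, at 4.98 to 25.5 CPM with a median of 17.0 CPM, against 0.478 to 22.5 CPM with a median of 3.85 CPM elsewhere (log2 difference 1.87, SE 0.31, adjusted p = 2.64e-05). LSM8 was also 1.52 higher in the pericycle (SE 0.31, adjusted p = 0.000269) and lower in the lateral root cap, where it ranged from 0.478 to 2.95 CPM (log2 difference -1.98, SE 0.40, adjusted p = 0.000245). SKIP (AT1G77180), a splicing factor that also acts in the circadian clock, was lower in the stele, with 99.6, 166 and 178 CPM at LPi and 69.9, 123 and 114 CPM at HPi, against 127 to 498 CPM elsewhere (log2 difference -0.90, SE 0.20, adjusted p = 0.00103). STA1 (AT4G03430), a tri-snRNP protein of the PRP6 type needed for stress tolerance, was higher in the cortex (log2 difference 0.60, SE 0.20, adjusted p = 0.0311) and lower in the lateral root cap (log2 difference -0.70, SE 0.22, adjusted p = 0.013). PRMT5 (AT4G31120), the methyltransferase that modifies arginines of Sm proteins, was higher in the pericycle (log2 difference 1.80, SE 0.50, adjusted p = 0.0052) at 9.76 to 23.9 CPM, and spread from 0.113 to 19.1 CPM in the other sorts.

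Of the U2AF subunits, 3 were higher in the pericycle. U2AF35A (AT1G27650), the small subunit that reads the downstream intron end, had 68.0, 93.5 and 517 CPM at LPi and 92.1, 126 and 109 CPM at HPi in the pericycle, and 33.2 to 103 CPM elsewhere, so that the groups overlapped. U2AF35A was 1.58 higher on the log2 scale (SE 0.23, adjusted p = 4.02e-06) and 0.79 without LPi replicate 3 (adjusted p = 8.7e-05). U2AF65B (AT1G60900) was 0.68 higher (SE 0.19, adjusted p = 0.00452). For U2AF65A (AT4G36690), the more abundant large subunit, the difference of 0.64 (SE 0.19, adjusted p = 0.00851) became 0.21 (adjusted p = 0.319) without LPi replicate 3. U2AF35B (AT5G42820) stayed at 1.36 to 6.05 CPM in all 30 libraries and passed in no sort.

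Of the 18 SR genes, 13 were higher in the pericycle, beside 22.1% of all genes tested. Among them SR34 and RS2Z32 no longer passed without LPi replicate 3, as given below. The SR34 (AT1G02840) type, related to human SRSF1, split by sort. SR34A (AT3G49430) was higher in the pericycle (log2 difference 0.98, SE 0.18, adjusted p = 7.38e-05) and in the stele (0.74, SE 0.18, adjusted p = 0.00267), where it had 51.5, 83.5 and 78.2 CPM at LPi and 54.4, 72.6 and 82.3 CPM at HPi. SR34B (AT4G02430) was higher in the pericycle (0.84, SE 0.23, adjusted p = 0.00514) and in the cortex (0.90, SE 0.23, adjusted p = 0.00465). SR34 itself had 43.3, 58.7 and 338 CPM in the pericycle at LPi and 59.4, 102 and 81.2 CPM at HPi. Its difference of 0.92 (adjusted p = 0.00316) became 0.10 (adjusted p = 0.7) without LPi replicate 3. SR30 (AT1G09140), the most abundant SR gene, was lower in the stele, with 184, 226 and 274 CPM at LPi and 161, 195 and 186 CPM at HPi against 212 to 497 CPM elsewhere (log2 difference -0.59, SE 0.15, adjusted p = 0.00381).

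The RSZ type carries a zinc knuckle. RSZ22 (AT4G31580) was higher in the stele, at 29.9 to 63.0 CPM with a median of 52.7 CPM against a median of 26.8 CPM elsewhere (log2 difference 0.87, SE 0.17, adjusted p = 0.0003). RSZ22 was also 0.56 higher in the pericycle (SE 0.18, adjusted p = 0.0134). RSZ21 (AT1G23860) was higher in the cortex, at 37.6 to 54.6 CPM with a median of 41.5 CPM against a median of 25.1 CPM elsewhere (log2 difference 0.66, SE 0.17, adjusted p = 0.00438), and 0.48 higher in the pericycle (SE 0.17, adjusted p = 0.0291). RSZ22A (AT2G24590), the least abundant of the 3, was lower in the lateral root cap (log2 difference -0.89, SE 0.31, adjusted p = 0.0222) and passed in no other sort.

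SC35 (AT5G64200) and the SCL genes, which are related to it, were mostly pericycle-high. SC35 ranged from 30.4 to 107 CPM in the pericycle, with a difference of 0.78 (SE 0.20, adjusted p = 0.00331). SCL30A (AT3G13570) was higher in the pericycle (1.19, SE 0.35, adjusted p = 0.00801) and the stele (1.07, SE 0.35, adjusted p = 0.0227), and lower in the lateral root cap (-1.49, SE 0.42, adjusted p = 0.00602). SCL30 (AT3G55460) followed the same signs, with differences of 0.58, 0.65 and -0.80. SCL28 (AT5G18810) was 1.74 higher in the pericycle (SE 0.58, adjusted p = 0.0205) at 3.25 to 7.83 CPM, although it did not pass the joint test (adjusted p = 0.0891). SCL33 (AT1G55310), at 28.9 to 115 CPM, passed in no sort.

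The plant-specific RS and RS2Z types gave the clearest dependence on 1 library. RS31 (AT3G61860) had 51.5, 54.7 and 522 CPM in the pericycle at LPi and 53.1, 72.8 and 63.2 CPM at HPi, and 25.6 to 77.6 CPM elsewhere. The difference of RS31 was 1.47 (SE 0.26, adjusted p = 5.98e-05) with pericycle LPi replicate 3 and 0.43 (adjusted p = 0.0328) without it. RS2Z32 (AT3G53500) had 59.6, 59.1 and 414 CPM at LPi and 52.9, 95.3 and 60.9 CPM at HPi, and its difference of 1.05 (adjusted p = 0.00127) became 0.20 (adjusted p = 0.398). Its relative RS2Z33 (AT2G37340) went the other way in that library, at 32.5 CPM against 79.3 to 135 CPM in the 5 other pericycle libraries, and was 0.84 higher in the pericycle (SE 0.17, adjusted p = 0.000279) and 0.94 without the library. RS31A (AT2G46610) was higher in the pericycle (0.97, adjusted p = 0.0299) and the stele (1.01, adjusted p = 0.031). RS40 (AT4G25500) and RS41 (AT5G52040) were highest in the stele. RS40 had 24.9, 59.4 and 56.1 CPM at LPi and 41.7, 60.8 and 59.2 CPM at HPi there, against 14.3 to 49.1 CPM elsewhere (log2 difference 0.83, SE 0.18, adjusted p = 0.000807), the low value being the shallowest library. RS41 ranged from 53.1 to 144 CPM in the stele and from 43.8 to 99.9 CPM elsewhere (log2 difference 0.62, SE 0.18, adjusted p = 0.00837).

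The SR-like genes were also higher in the pericycle. SR45 (AT1G16610), which binds U1-70K and U2AF35 and is part of the exon junction complex, had 61.4, 69.2 and 297 CPM at LPi and 85.8, 78.8 and 86.1 CPM at HPi in the pericycle, and 10.2 to 75.9 CPM elsewhere. The log2 difference of SR45 was 1.64 (SE 0.24, adjusted p = 3.91e-06), and 1.05 without LPi replicate 3 (adjusted p = 8.04e-05). SR45A (AT1G07350) had 591, 637 and 1548 CPM at LPi and 777, 1014 and 702 CPM at HPi there, and 124 to 627 CPM elsewhere, with a difference of 1.47 (SE 0.21, adjusted p = 2.56e-06) and of 1.12 without that library. In the stele SR45A was lower, with 216, 158 and 406 CPM at LPi and 124, 192 and 201 CPM at HPi (log2 difference -1.09, SE 0.25, adjusted p = 0.00116).

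Among the splicing repressors, PTB1 (AT3G01150) and PTB3 (AT1G43190) were higher in the cortex. PTB proteins bind pyrimidine tracts and can mask them. PTB3 ranged there from 81.6 to 122 CPM with a median of 89.0 CPM, against a median of 56.2 CPM elsewhere (log2 difference 0.57, SE 0.16, adjusted p = 0.0114). PTB1 ranged from 36.1 to 58.7 CPM in the cortex, against 14.9 to 55.3 CPM elsewhere (log2 difference 0.65, SE 0.22, adjusted p = 0.0292). The pericycle came close for both. Outside LPi replicate 3 its libraries held 80.9 to 116 CPM of PTB3, with a median of 106 CPM, and 38.2 to 55.3 CPM of PTB1. LPi replicate 3 held 40.1 and 16.3 CPM, and without it the highest mean of PTB3 lay in the pericycle. PTB2 (AT5G53180), at 14.1 to 56.7 CPM over all libraries, passed in no sort. GRP7 (AT2G21660) and GRP8 (AT4G39260) are glycine-rich RNA-binding proteins that oscillate with the clock and act on the splicing of their own transcripts. GRP8 was higher in the pericycle, with 113, 144 and 413 CPM at LPi and 127, 192 and 219 CPM at HPi (log2 difference 1.08, SE 0.18, adjusted p = 3.37e-05; 0.63 without LPi replicate 3), and lower in the cortex, at 48.0 to 97.0 CPM (log2 difference -0.82, SE 0.21, adjusted p = 0.00438). GRP7 was the single member higher in the epidermis, with 93.2, 75.5 and 15.2 CPM at LPi and 74.3, 91.6 and 16.0 CPM at HPi (log2 difference 1.48, SE 0.43, adjusted p = 0.00917). The low value of GRP7 in each group was the nearly identical replicate 3, and the difference was 2.06 without both. GRP7 also split within the cortex, with 33.0, 2.60 and 26.7 CPM at LPi and 2.75, 35.6 and 3.29 CPM at HPi, so that both phosphate groups held high and low libraries.

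**Figure D3:**
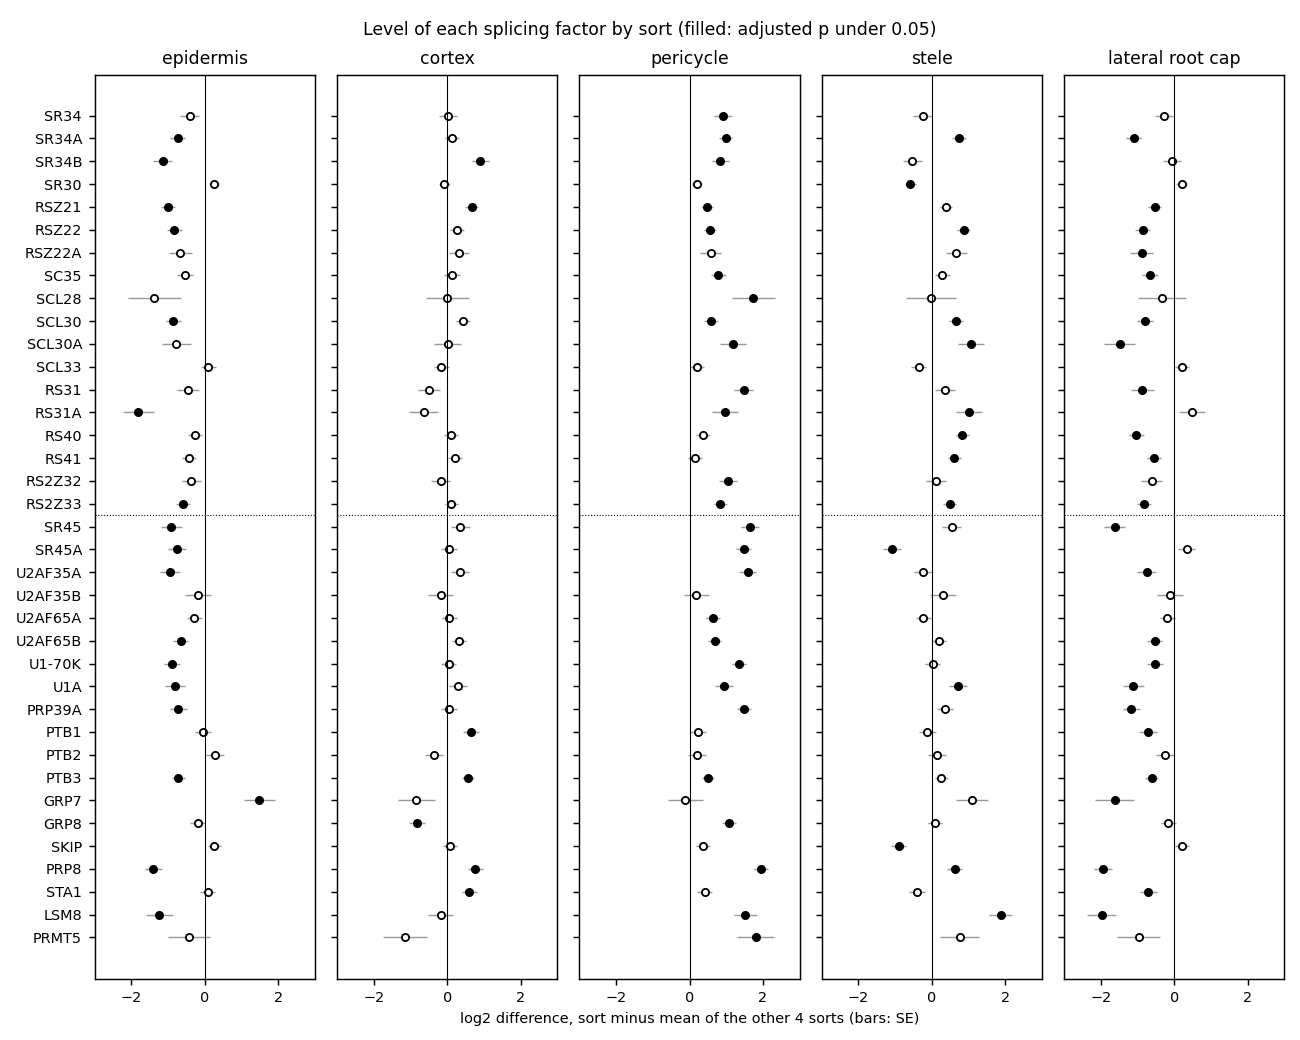
Log2 difference of each sort from the mean of the other 4 sorts for the 37 members, 1 panel per sort, with bars of 1 SE and filled points where the adjusted p was under 0.05. In the pericycle panel 26 points are filled and right of 0, in the lateral root cap panel 23 are filled and left of 0.

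By sort, the stele had 11 members higher and 3 lower, beside 17.8% and 11.3% of all genes tested. The 3 lower were SKIP, SR45A and SR30, and the median log2 difference was 0.29 over the members and -0.04 over all genes. Of the 11, 8 were SR genes. The LPi and HPi libraries of replicate 1, the shallowest in the sort, stood apart, with member sums of 1809 and 1830 CPM against 2735 to 3122 CPM in the other 4 and endodermis markers at 262 and 1174 CPM against 3.48 to 58.0 CPM. Without the 3 shallowest libraries, these among them, 15 were higher and 4 lower. Without LPi replicate 3 the calls were 5 higher and 3 lower, without LPi replicate 2 or HPi replicate 3 they were 6 and 3, and in LPi libraries alone none passed. The cortex had 6 members higher (RSZ21, SR34B, PRP8, PTB3, PTB1 and STA1) and 1 lower (GRP8), beside 13% and 8.46% of all genes, which for the higher calls is close to the background. The 7 calls became 3 without HPi replicate 3, 4 without LPi replicate 3 and 0 in LPi libraries alone. PRP8 ranged from 143 to 377 CPM in the cortex and was 0.76 higher (SE 0.20, adjusted p = 0.00633). Endodermis markers exceeded cortex markers in all 6 libraries of this sort, and their part in these values was not tested.

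In the lateral root cap 0 members were higher and 23 lower, beside 20.4% and 20.2% of all genes tested, and the median log2 difference was -0.65 over the members and -0.01 over all genes. At an unadjusted p under 0.05, 24 members passed, and DESeq2 called 4 higher and 17 lower. Fewer members were called when some single libraries of this sort were left out, and in HPi or LPi libraries alone. Those counts are in the last section. PRP8 had 49.5, 58.5 and 62.0 CPM at LPi and 56.3, 64.6 and 35.4 CPM at HPi there, against a median of 238 CPM in the other sorts (log2 difference -1.94, SE 0.25, adjusted p = 4.47e-07). SR45 ranged from 10.2 to 26.5 CPM, against a median of 56.7 CPM elsewhere (-1.62, SE 0.30, adjusted p = 8.41e-05). PRP39A ranged from 44.6 to 79.7 CPM, against a median of 122 CPM (-1.16, SE 0.24, adjusted p = 0.000293). Among SR genes the smallest p-values were those of SR34A at 17.5 to 38.8 CPM (-1.10, SE 0.21, adjusted p = 0.000114), RS40 at 14.3 to 24.5 CPM (-1.04, SE 0.21, adjusted p = 0.000229), RSZ22 at 13.0 to 29.9 CPM (-0.86, SE 0.19, adjusted p = 0.000814) and RS2Z33 at 29.6 to 44.5 CPM (-0.83, SE 0.19, adjusted p = 0.0011). All 3 RSZ genes were lower, and so were all 3 members of the U1 particle, U1A among them (-1.12, adjusted p = 0.00251). The 50 most abundant genes took 18.9% to 23.5% of the reads in this sort and 19.4% to 21.3% in the epidermis, against 13.9% to 18.0% in the other 3 sorts, and the part of this in the lower CPM of the members was not tested.

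In the epidermis 1 member was higher and 17 were lower, beside 18.8% and 13% of all genes tested, with a median log2 difference of -0.66 over the members and 0.13 over all genes. PRP8 had 83.8, 88.4 and 43.0 CPM at LPi and 57.5, 127 and 40.2 CPM at HPi (log2 difference -1.40, SE 0.24, adjusted p = 2.61e-05). RSZ21 ranged from 13.7 to 20.8 CPM, against a median of 37.1 CPM elsewhere (-0.997, SE 0.19, adjusted p = 0.000127). U1-70K ranged from 32.5 to 48.4 CPM, against a median of 66.0 CPM (-0.89, SE 0.22, adjusted p = 0.00189). SR34B (-1.15, adjusted p = 0.00119), RSZ22 (-0.83, adjusted p = 0.00125), RS31A (-1.81, adjusted p = 0.00136), SCL30 (-0.86, adjusted p = 0.00214) and PTB3 (-0.72, adjusted p = 0.00248) were lower too. Without the nearly identical LPi and HPi libraries of replicate 3, 10 of the 18 passed, 9 lower and 1 higher. Among the members named here SCL30 no longer passed (adjusted p = 0.111).

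Scaling moved the balance of these calls. Under RLE size factors instead of TMM, the median of all genes shifted to 0.29 in the epidermis, -0.19 in the cortex, -0.07 in the pericycle, -0.19 in the stele and 0.23 in the lateral root cap. The members' medians were then -0.48, -0.10, 0.69, 0.18 and -0.41. With RLE the lateral root cap had 4 members higher (SR45A, SR30, SCL33 and SKIP) and 13 lower, the stele 6 higher and 4 lower, and the pericycle 24 higher and 0 lower. Relative to the median of all genes, the members' median lay higher in the cortex, the pericycle and the stele under both scalings. It lay lower in the epidermis and the lateral root cap. A change of scaling moves all genes of a library alike, so this agreement was nearly fixed in advance and is no check of the scaling.

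Low phosphate moved no member past the threshold. With edgeR's quasi-likelihood test, 0 of 37 members were called between LPi and HPi in the epidermis (background 0% of all genes), the cortex (0%), the pericycle (0.00402%), the stele (0%) and the lateral root cap (0.0241%). The same count of 0 was found in the mean over the 5 sorts (0.00402%) and in the test of whether the response differed between sorts (0%). At an unadjusted p under 0.05, 11 members passed in the pericycle, where 12.3% of all genes did, and 0 in each of the other comparisons. In the pericycle DESeq2 called 3 members (U2AF35A, RS31 and STA1) and edgeR with RLE scaling 3 (RS2Z32, RS31 and STA1). Both called 0 in the other comparisons. Over all 24866 genes tested, RLE called 889 in the pericycle, and the larger DESeq2 count is given in the last section. Limma voom called 0 throughout. The SE of a response was 0.26 to 1.20 on the log2 scale, with a median of 0.39 in each sort, so that small changes were not detectable at this spread. As a check of the treatment, AT4, a non-coding RNA induced by phosphate starvation, had 126, 221 and 163 CPM in the pericycle at LPi and 21.1, 49.97 and 46.4 CPM at HPi. AT4 was higher at LPi there (log2 change 2.12, adjusted p = 0.0324) and over the 5 sorts (0.98, adjusted p = 0.00977). The check was uneven, since AT4 was the single call among the 4 phosphate starvation genes. SPX1, a phosphate sensor, had 21.8, 24.5 and 11.5 CPM in the cortex at LPi and 27.0, 41.1 and 32.2 CPM at HPi, and had lower means at LPi in the epidermis and the lateral root cap too, none of them past the test. The summed level of the 4 genes overlapped between LPi and HPi in the epidermis, the stele and the lateral root cap.

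The pericycle held the smallest p-values, and the changes of RS31 and STA1 rested mostly on LPi replicate 3. RS31, with the values given above, had a log2 change of 1.71 (SE 0.53, adjusted p = 0.14). STA1 had 173, 193 and 720 CPM at LPi and 142, 173 and 180 CPM at HPi, and a change of 1.13 (SE 0.38, adjusted p = 0.171). RSZ21 had 30.2, 33.4 and 21.7 CPM at LPi and 41.4, 72.2 and 48.8 CPM at HPi, and a change of -0.91 (SE 0.32, adjusted p = 0.189), with all LPi values below all HPi values. Without LPi replicate 3 the changes were -0.10 for RS31, 0.29 for STA1 and -0.62 for RSZ21, and 0 members had an unadjusted p under 0.05, beside 5.36% of all genes. The number of members with a higher mean at LPi was 12 of 37 with that library and 5 without it, and 15 of the 37 changed sign.

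**Figure D4:**
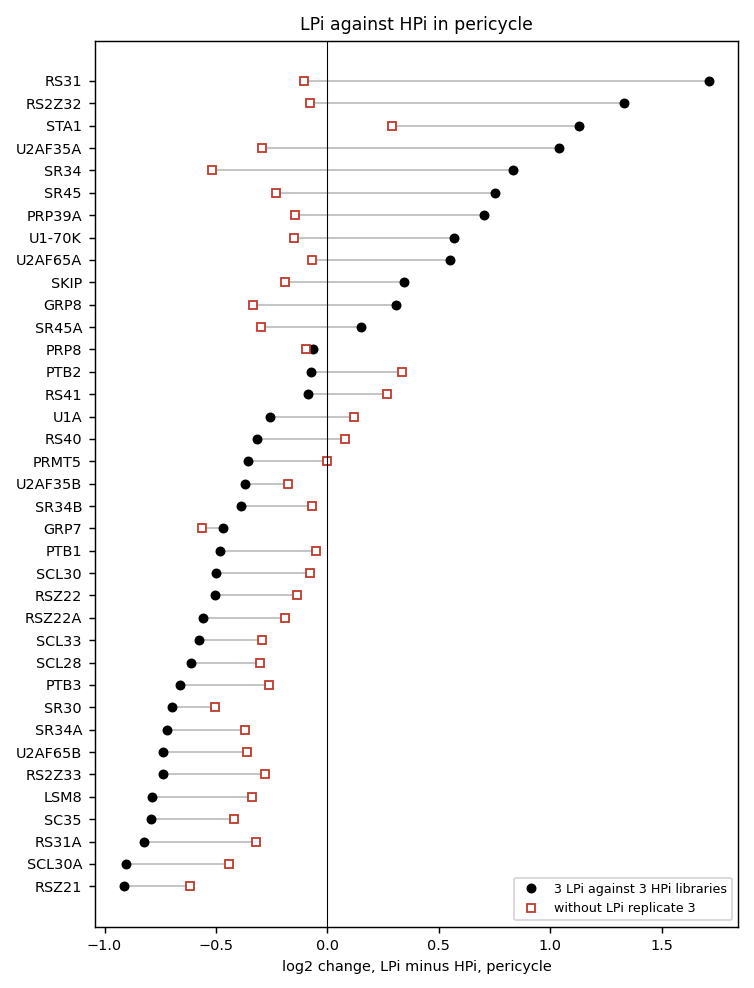
Log2 change of LPi against HPi in the pericycle for the 37 members, with all 6 libraries and without pericycle LPi replicate 3, joined by a line for each member. RS31 moves from 1.71 to -0.10, and 5 members lie above 0 without the library, against 12 with it.

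In pericycle LPi replicate 3, 13 members lay above the 5 other pericycle libraries, 21 below them and 3 within their range, beside 24.6% above and 33.9% below over all genes tested. RS31 was 9.54 times the median of the 5 others. The high members were of mixed roles (RS31, RS2Z32, SR34, SR45, SR45A, U2AF35A, U1-70K, PRP39A, STA1), and so were the low ones, such as RS31A at 1.08 CPM against 8.35 to 18.3 CPM, SCL30A at 5.42 CPM and LSM8 at 4.34 CPM. The part of the library's depth in this spread was not tested.

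In the other sorts the smallest adjusted p of a member was 0.75. In the epidermis, RSZ22 had 17.8, 17.2 and 16.0 CPM at LPi and 25.2, 23.9 and 18.3 CPM at HPi, without overlap (log2 change -0.40, SE 0.33, adjusted p = 1). RS31A changed by 0.74 (SE 0.68) and SCL30 by -0.36 (SE 0.36) there. In these epidermis comparisons the replicate 3 libraries, last in each RSZ22 list, were the nearly identical pair. In the cortex, SR34B had 11.8, 25.6 and 26.8 CPM at LPi and 39.4, 20 and 51.5 CPM at HPi (log2 change -0.79, SE 0.44, adjusted p = 1), RSZ22A changed by -0.91 (SE 0.52) and GRP8 by -0.47 (SE 0.35). In the stele, the changes were 0.53 for SKIP (SE 0.34), 0.59 for SR45A (SE 0.41) and 0.34 for SR30 (SE 0.26), each with an adjusted p of 1. In the lateral root cap, RSZ22 had 19.8, 22.7 and 29.9 CPM at LPi and 16.7, 16.1 and 13.0 CPM at HPi (log2 change 0.66, SE 0.33, adjusted p = 0.75), without overlap. SR45A had 572, 547 and 563 CPM at LPi and 337, 475 and 357 CPM at HPi there, also without overlap, and changed by 0.53 (SE 0.41). PRMT5 had 2.01, 0.388 and 2.79 CPM at LPi and 0.687, 19.1 and 2.34 CPM at HPi, and its change of -2.07 (SE 1.04) rested on the 19.1 CPM, since it was 0.13 without that library. LPi and HPi groups without overlap, named here and for RSZ21 in the pericycle, were not counted over all genes, so no weight rests on them.

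Over the 5 sorts, the mean response was nearest to the threshold for SR34B (log2 change -0.37), RSZ21 (-0.26) and RS2Z32 (0.39), with a smallest adjusted p of 0.753. The median response of the members and of all genes was -0.07 and 0.08 in the epidermis, -0.12 and -0.06 in the cortex, -0.37 and -0.26 in the pericycle, -0.12 and -0.04 in the stele, and 0.02 and 0.01 in the lateral root cap. PTB2, PTB3, RS40, SCL30 and SR34B had a lower mean at LPi in all 5 sorts, and no member had a higher mean in all 5.

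To compare close relatives independently of gene length, the log2 ratio of 11 pairs was taken within each library and each sort was set against the 24 other libraries by a 2-sided exact permutation test, adjusted over 55 tests. Of these, 2 passed. PTB1 to PTB2 was higher in the cortex, at 0.94 ± 0.47 (SD, n = 6) against -0.09 ± 0.45 (SD, n = 24; difference 1.03, exact permutation adjusted p = 0.00148), and the range of 0.47 to 1.78 in the cortex overlapped that of -1.07 to 0.80 elsewhere. RS40 to RS41 was lower in the lateral root cap, at -1.66 ± 0.36 (SD, n = 6) against -1.15 ± 0.31 (SD, n = 24; difference -0.50, exact permutation adjusted p = 0.0451), also with overlap. The next pairs, SCL30A to SCL33 in the lateral root cap and U2AF35A to U2AF35B in the pericycle, had an exact permutation adjusted p of 0.0808 each. Without pericycle LPi replicate 3 the count was 8.

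**Figure D5:**
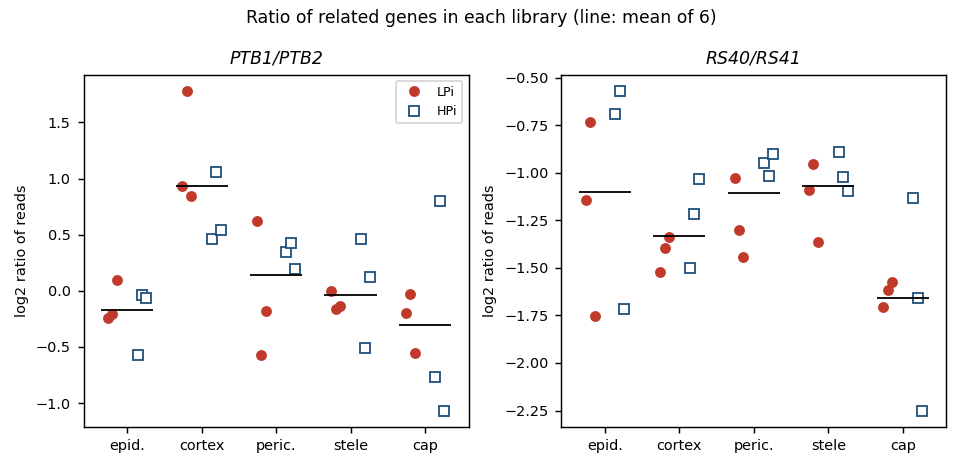
Log2 ratio of PTB1 to PTB2 and of RS40 to RS41 in each of the 30 libraries by sort, LPi points left of HPi points, with a line at the mean of the 6 libraries of a sort. The cortex mean of PTB1 to PTB2 is 0.94, and the lateral root cap mean of RS40 to RS41 is -1.66.

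With all libraries, other genes of the splicing machinery, counted in 5 lists, also had their most higher calls in the pericycle, except the kinases. Beside the counts below, 22.1% of all genes were higher in the pericycle, 17.8% in the stele and 13% in the cortex, and 20.2% were lower in the lateral root cap and 13% in the epidermis. Of 21 core snRNP proteins (Sm and LSM rings), 15 were higher and 0 lower in the pericycle, 9 and 1 in the stele, 3 and 0 in the cortex, which is near the background, 0 and 14 in the lateral root cap and 0 and 13 in the epidermis. SmD2a had a log2 difference of 1.986 in the pericycle (SE 0.24, adjusted p = 2.51e-07) and of -2.002 in the epidermis (SE 0.31, adjusted p = 8.99e-06). Of 24 genes of assembly and catalysis, 14 were higher and 0 lower in the pericycle, 5 and 1 in the stele, a share of 20.8% higher and near the background, 5 and 0 in the cortex, 0 and 12 in the lateral root cap and 0 and 9 in the epidermis. SNU114, a GTPase that partners PRP8, was 1.88 higher in the stele (SE 0.27, adjusted p = 4.04e-06) and lower in the lateral root cap (log2 difference -2.37, SE 0.36, adjusted p = 6.19e-06). Of 10 hnRNP-like proteins, 6 were higher in the pericycle, 3 in the stele and 2 in the cortex with 0 lower in each, while 4 were lower in the lateral root cap and 5 in the epidermis with 0 higher. Of 10 genes of the exon junction complex and nonsense-mediated decay, 7 were higher in the pericycle and 0 lower, 1 and 1 in the stele, 0 and 0 in the cortex, 1 and 4 in the lateral root cap, and 1 and 4 in the epidermis. Without pericycle LPi replicate 3, the pericycle counts higher were 11, 17, 6 and 4 for these lists. The order is core snRNP, assembly and catalysis, hnRNP-like and decay, with 1 lower among the genes of assembly and catalysis. In the stele 11 core snRNP proteins were then higher and 1 lower, so the pericycle no longer led that list. Their median log2 difference was 0.83 in the stele and 0.72 in the pericycle. Under RLE scaling the pericycle counts higher were 13, 13, 5 and 7, with 1 lower in the last list, and in the lateral root cap 2 core snRNP proteins were higher and 12 lower. Without the nearly identical pair, the epidermis counts lower were 6, 2, 4 and 1 in the same order.

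The 10 kinases that phosphorylate SR proteins ran differently, with 6 higher and 1 lower in the lateral root cap, 2 and 3 in the pericycle, 0 and 0 in the stele, 0 and 1 in the cortex and 1 and 1 in the epidermis. The median log2 difference of the kinases was 0.61 in the lateral root cap and -0.18 in the pericycle, and 0.85 and -0.32 under RLE scaling. Between LPi and HPi, edgeR with TMM scaling called 0 genes of these lists in any sort. At an unadjusted p under 0.05 in the pericycle there were 4 core snRNP proteins, 4 genes of assembly and catalysis, 3 hnRNP-like proteins, 5 of the exon junction complex and decay and 1 kinase, beside 12.3% of all genes. Without pericycle LPi replicate 3 the counts were 0, 1, 0, 0 and 0, beside 5.36% of all genes. With RLE scaling 2, 3, 1, 5 and 1 were called there, beside 889 of all 24866 genes tested. The summed level of the decay list was 4257 CPM in that library and 968 to 1038 CPM in the other LPi libraries of the sort.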

How the data were processed

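The authors deposited 1 table of read counts per gene for 30 libraries, and the submitters' processing notes name CASAVA 1.4, FastQC 0.11.9, MultiQC 1.7, STAR 2.5.3a, HTSeq 1.99.2 and DESeq2. RNA was amplified with low-input kits before sequencing, so PCR copies without molecular identifiers entered the counts. The genome build, the annotation and the use of strand were not given in the sources used here. The 5 summary lines of HTSeq, 4.99% to 12.5% of reads per library, were left out. Reads that match related genes equally are among them, which makes levels of close relatives uncertain. Gene names and exon lengths were taken from the RefSeq TAIR10.1 gene table, in which all 37 members were found.

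Counts were filtered with filterByExpr, scaled by TMM and fitted in edgeR 4.0.16 (R 4.3.3) with 1 mean per group over all 30 libraries, which left 20 residual degrees of freedom. The quasi-likelihood F test was 2-sided and robust, with Benjamini-Hochberg adjustment over 24866 genes and calls at an adjusted p under 0.05. Each SE is the log2 difference divided by the square root of F. A pair ratio is the log2 ratio of CPM in a library with a prior count of 1. The steps were tested on simulated data. Alternatives were RLE scaling, no filter, a filter of 5 CPM in 3 libraries, DESeq2 1.42.0, limma 3.58.1 (voom with sample weights), a replicate block, each sort fitted alone, a prior count of 0.25, removal of 285 plastid and mitochondrial genes, of the 3 shallowest libraries or of the nearly identical epidermis pair, HPi or LPi libraries only, and each library left out in turn.

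Members and lists were chosen with earlier results of these data known. Values per library with full statistics were given for at most 8 called members per comparison by smallest p, or for the 3 with the smallest p where none was called. The values per library of SR34 and RS2Z32 in the pericycle were added after they were seen. In epidermis and stele the same replicate number marked libraries that deviated together, with correlations of 0.123 to 0.238 in the epidermis and 0.111 to 0.212 in the stele. In the pericycle each library also correlated best with its own number, but at 0.019 to 0.061, and the cortex and the lateral root cap gave no such pattern. Any pairing comes from the data and not from the labels.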

Additional observations from a re-analysis of the deposited data

Results flagged for a closer look

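Among 39 sets of 6 libraries (named members within a sort), 9 held a library flagged by Dixon's rule. Its gap to the nearest neighbour, as a share of the range, exceeded the critical value for 6 libraries. For independent normal values chance gives about 1 in 20. The sets here hold CPM without logs, pool LPi and HPi and share libraries, so that rate does not apply to them. Of the 9 flags, 6 were pericycle LPi replicate 3. PRP39A stood there at 656 CPM against 157 to 225 CPM in the 5 other pericycle libraries. U1-70K stood at 316 CPM against 87.6 to 137 CPM, and SR45 at 297 CPM against 61.4 to 86.1 CPM. U2AF35A stood at 517 CPM against 68.0 to 126 CPM. GRP8 stood at 413 CPM against 113 to 219 CPM, and RS31 at 522 CPM against 51.5 to 72.8 CPM. The other 3 were PTB3 in cortex HPi replicate 3 at 122 CPM against 81.6 to 91.1 CPM, SR45A in stele LPi replicate 3 at 406 CPM against 124 to 216 CPM, and RS2Z33 in lateral root cap HPi replicate 2 at 44.5 CPM against 29.6 to 35.03 CPM.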

How the results depend on the processing

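Members called are counted here out of 37, and pair ratios out of 55. For the counts between sorts, the shares of all genes at the same settings are not given. In the pericycle, the count between LPi and HPi was 0, 3 under RLE, 3 with DESeq2 and 0 to 3 with 1 library left out. Among all genes that comparison had 1 call, 889 under RLE, 1498 with DESeq2, 164 with the stricter filter and 3 without LPi replicate 3. Between sorts, limma voom called 11 members in the cortex and 25 in the stele. Without the nearly identical pair, the epidermis had 10. In HPi libraries alone the counts were 9 in the epidermis, 4 in the cortex, 8 in the stele and 14 in the lateral root cap. In LPi libraries alone they were 4, 0, 13, 0 and 4 in epidermis, cortex, pericycle, stele and lateral root cap, and 15 for any difference. With 1 library left out, the range was 11 to 20 in the epidermis (11 without HPi replicate 3), 3 to 8 in the cortex (3 without HPi replicate 3, 4 without LPi replicate 3), 21 to 26 in the pericycle, 8 to 17 in the stele (8 without LPi replicate 3, 9 without LPi replicate 2 or HPi replicate 3), 14 to 25 in the lateral root cap (14 without LPi replicate 2, without LPi replicate 3 or without HPi replicate 1, and 15 without HPi replicate 3) and 30 to 33 for any difference. Pair ratios passed 2 times, 8 without the 3 shallowest libraries, 4 without the epidermis pair, 0 in HPi or LPi libraries alone, where 3 against 12 libraries allow no p under 0.0022, or 0.121 for a single test once multiplied by 55, and 1 to 8 with 1 library left out. The pericycle response of RS31 turned to -0.17 with limma voom and to -0.10 without the 3 shallowest libraries. With 1 library left out it ran from -0.10 (without LPi replicate 3) to 2.14 (without LPi replicate 1), and that of PRMT5 in the lateral root cap ran from -2.54 to 0.13 (without HPi replicate 2). With the replicate block, LPi against HPi gave 0 members in every comparison, and the sorts gave 19 in epidermis, 7 in cortex, 25 in pericycle, 10 in stele, 22 in lateral root cap and 31 for any difference. Where no value above shows it, the cause was not tested.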
